A study of Mus musculus with 6 samples.

Results

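The 9 genes described here code for inflammatory cytokines, their inhibitor, an inflammasome sensor, a neutrophil chemokine and an inflammation-induced receptor: Il1b, Il1a, Il1rn, Tnf, Il18, Osm, Nlrp3, Cxcl2 and Gpr84. They were chosen by name and are 9 of the 19361 genes that appear in any of the 6 single-cell tables, and each of the 9 is listed in all 6. The cells were myeloid cells of perfused mouse brain, enriched for the surface protein Cd11b by magnetic sorting after enzymatic digestion and a density gradient, and their mRNA was counted by Drop-seq, in which every molecule captured in a droplet receives a unique molecular identifier (UMI). All mice were female C57BL/6 animals of 2 to 3 months. The naive 1 and naive 2 libraries came from wild-type brains without tumour. Metastasis 1 and metastasis 2 came from unmodified C57BL/6 mice with brain metastases, 2 to 3 weeks after cardiac injection of E0771, a mouse mammary carcinoma line. Each of these 4 libraries held the cells of 1 brain. A Cx3cr1+/- and a Cx3cr1-/- library, both from C57BL/6 mice with the same metastases, held 2 pooled brains each. Cx3cr1 codes for the fractalkine receptor, which microglia carry at high levels.

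Interleukin-1 alpha and interleukin-1 beta are cytokines that act on the same receptor, and the protein of Il1rn, the interleukin-1 receptor antagonist, occupies that receptor without signalling. Interleukin-1 beta and interleukin-18 are made as inactive precursors that caspase-1 cuts once an inflammasome has formed, and Nlrp3 is a sensor that starts 1 kind of inflammasome. Tnf codes for tumour necrosis factor, Osm for oncostatin M (a cytokine of the interleukin-6 family), Cxcl2 for a chemokine that draws neutrophils through the receptor Cxcr2, and Gpr84 for a receptor for medium-chain fatty acids. In the brain these genes are known from microglia, the resident macrophages, and from blood monocytes, macrophages and neutrophils that enter diseased tissue.

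On the mouse assembly GRCm38 (mm10) with the GENCODE vM21 annotation, Il1b (chromosome 2, 129364570 to 129371139, minus strand) and Il1a (chromosome 2, 129299610 to 129309972, minus strand) are neighbours separated by 54597 bases. Il1rn lies elsewhere on chromosome 2 (24336853 to 24351494, plus strand). Tnf is on chromosome 17 (35199381 to 35202007, minus strand), Il18 on chromosome 9 (50554827 to 50581840, plus strand), Osm and Nlrp3 on the plus strand of chromosome 11 (4236420 to 4241026 and 59541568 to 59566956), Cxcl2 on chromosome 5 (90903871 to 90905938, plus strand) and Gpr84 on chromosome 15 (103308235 to 103310612, minus strand). All 9 are annotated as protein-coding.

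RefSeq promoter windows for GRCm38.p6 were matched to 8 of the 9 genes, all but Osm. The 250 bases before the start site are printed for Il1b and Cxcl2, both higher in macrophages than in microglia, and for Il1a and Tnf, whose levels lay on the microglial side. Each is read 5′ to 3′ on the strand of its gene, and capitals mark every match, on either strand, to TATAAA (the TATA box), GGGAN directly followed by TTTCC (a form of the NF-kB site) or TTGNGNAA (a core of the C/EBP site).
Il1b, chr2:129371140-129371389, minus strand: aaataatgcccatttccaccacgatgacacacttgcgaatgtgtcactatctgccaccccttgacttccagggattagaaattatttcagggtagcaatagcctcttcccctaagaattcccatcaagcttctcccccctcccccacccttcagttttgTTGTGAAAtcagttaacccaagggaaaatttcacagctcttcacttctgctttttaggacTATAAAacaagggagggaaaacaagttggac
Cxcl2, chr5:90903649-90903898, plus strand: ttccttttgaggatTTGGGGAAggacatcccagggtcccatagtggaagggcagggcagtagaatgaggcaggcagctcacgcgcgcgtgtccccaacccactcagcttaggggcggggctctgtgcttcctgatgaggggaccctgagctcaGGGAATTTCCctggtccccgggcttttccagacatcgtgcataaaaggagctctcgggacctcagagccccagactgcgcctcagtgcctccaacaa
Il1a, chr2:129309973-129310222, minus strand: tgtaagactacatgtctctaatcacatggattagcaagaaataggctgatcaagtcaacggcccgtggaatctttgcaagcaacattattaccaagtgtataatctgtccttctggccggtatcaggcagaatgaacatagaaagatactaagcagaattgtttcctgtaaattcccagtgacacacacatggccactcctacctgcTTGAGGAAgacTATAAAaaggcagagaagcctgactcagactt
Tnf, chr17:35202008-35202257, minus strand: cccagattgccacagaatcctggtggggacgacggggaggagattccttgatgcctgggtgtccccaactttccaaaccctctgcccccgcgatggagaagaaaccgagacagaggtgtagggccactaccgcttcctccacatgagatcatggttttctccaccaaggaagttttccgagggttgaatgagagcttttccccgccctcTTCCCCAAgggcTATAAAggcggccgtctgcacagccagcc
The Il1b window held TATAAA 31 bases before the start and TTGNGNAA 91 bases before it. In the Cxcl2 window, the NF-kB form began 97 bases and TTGNGNAA 236 bases before the start. Il1a held TATAAA at 32 and TTGNGNAA at 43 bases, and Tnf held them at 29 and 41 bases. Of 32851 mouse promoter windows of this length, 12.4% held TATAAA, 0.356% held the NF-kB form and 11.7% held TTGNGNAA. These matches are letters in a window and were not tested for use in these cells.

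Each table held 1000 cell barcodes, with 491621 to 2667099 UMIs in all, and 77 to 940 barcodes per library passed the quality limits. A single cell barcode was shared, between naive 2 and the Cx3cr1-/- library. Groups were taken from the labels. The table names state the reverse group for the 4 unmodified libraries, and under them every direction from naive to metastasis would turn round. All 57 carcinoma-like cells of these 4 libraries lay in metastasis 1, which bears on that label, whereas naive 2 and metastasis 2 held none. The Cx3cr1+/- and Cx3cr1-/- libraries, both from mice with metastases, held 0 and 1 such cells, so their absence does not settle the label of metastasis 2. Naive 2 held 26 cells led by MHC class II genes and 2 led by S100a8, and metastasis 2 held none of either. If the labels of replicate 2 alone were reversed, the directions within that replicate would turn round and those within replicate 1 would not. Fits, genes called and group overlaps that pool both replicates would then compare other groups, and they were not refitted that way. Which labels are right for replicate 2 was not tested. Metastasis 1 also stood apart in its makeup. It held 209 infiltrating macrophage-like cells, against 4 in naive 2 and none in the others, and 155 microglia-like cells (16.5% of its kept cells, against 69.8% to 94.8% elsewhere). The replicate number coincided with the sequencer, HiSeq 2500 for replicate 1 and NextSeq 500 for replicate 2, so ratios are also given within each replicate. Barcodes outside the kept cells held 0% to 8.23% of a member's UMIs in metastasis 1 and 20% to 100% in the other libraries.

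Cell classes were built without the 9 genes. Microglia-like cells held all 10 microglial markers in every library, with a summed level of 6189 counts per 1000000 UMIs (CPM) in metastasis 1 and 16099 to 21377 CPM in the others. The infiltrating macrophage-like cells had 2582 CPM of these markers and 6668 CPM of monocyte and macrophage markers, which stood at 1792 CPM in the microglia-like cells beside them and at 99.3 to 689 CPM in those of other libraries. Of the microglia-like cells in metastasis 1, 152 of 155 formed a cluster of their own (cluster 10), on which every microglial value of that library rests. It met no marker rule over all cells and was named from its microglial markers relative to the other cells of metastasis 1. Its 10 leading genes include the members Gpr84, Nlrp3 and Osm and the chemokine genes Ccl3 and Ccl4. The cluster led by S100a8, a gene of neutrophils and monocytes, held 31 cells in metastasis 1, 15 in the Cx3cr1+/- library and 8 in the Cx3cr1-/- library. Its S100a8 level was 3739 CPM, 147 CPM and 10420 CPM in these libraries, so the Cx3cr1+/- cells of this cluster held little of it. A list of 12 neutrophil markers summed to 5529, 421 and 28434 CPM there, with the neutrophil receptor gene Cxcr2 at 0 in both mutant libraries, and the monocyte and macrophage markers summed to 8568 to 10296 CPM. Cx3cr1 itself, the targeted gene, was at 57.2 CPM (24 UMIs) in microglia-like cells of the Cx3cr1-/- library, 1254 CPM in the Cx3cr1+/- library and 989.8 to 4413.5 CPM in the unmodified ones.

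Over all barcodes of a library, Il1b was the member with the widest range in CPM. In naive 1 and naive 2 it stood at 272 CPM (244 to 303) and 677 CPM (638 to 719), in metastasis 1 and metastasis 2 at 3135 CPM (3068 to 3203) and 262 CPM (219 to 312), and in the Cx3cr1+/- and Cx3cr1-/- libraries at 398 CPM (373 to 424) and 408 CPM (378 to 438). These and all later parentheses after a CPM or ratio are exact 95% intervals that cover counting error only, and CPM are not per transcript length. Metastasis 1 lay above every other library, the intervals of naive 1 and metastasis 2 overlapped at the low end, those of the 2 Cx3cr1-mutant libraries overlapped each other, and the naive and metastasis groups overlapped. In such library totals, fewer cells of a type and less RNA per cell cannot be told apart.

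The receptor antagonist Il1rn had the same highest library at a lower level. Naive 1 and naive 2 had 8.18 and 28.4 CPM, metastasis 1 and metastasis 2 had 136 and 4.07 CPM (the latter 2 UMIs), and the Cx3cr1+/- and Cx3cr1-/- libraries had 10.1 and 51.0 CPM. Il1a, by contrast, was lowest in metastasis 1, at 274 CPM, and stood at 484, 492 and 653 CPM in naive 1, naive 2 and metastasis 2 and at 435 and 398 CPM in the Cx3cr1+/- and Cx3cr1-/- libraries. Naive and metastasis values of both genes overlapped.

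For Cxcl2 the order was 1712 CPM in metastasis 1, 971 in naive 1, 669 in metastasis 2, 488 in naive 2, 274 in the Cx3cr1+/- library and 231 in the Cx3cr1-/- library. The 2 mutant libraries were the lowest, and naive and metastasis values overlapped. Nlrp3 was at 523 CPM in metastasis 2, 488 in metastasis 1, 351 in naive 1, 272 in naive 2, 162 in the Cx3cr1+/- and 138 in the Cx3cr1-/- library. Both metastasis values were above both naive values, as for 14.3% of the 9678 genes tested, with an edgeR adjusted p of 1.00, and the mutant libraries lay below both groups.

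Tnf was at 679 and 545 CPM in naive 1 and naive 2, 529.8 and 346 CPM in metastasis 1 and metastasis 2, 738 CPM in the Cx3cr1+/- and 469 CPM in the Cx3cr1-/- library. Both naive values were above both metastasis values, as for 9.43% of genes tested, but those of naive 2 and metastasis 1 overlapped within their intervals. Osm ranged from 71.2 CPM in metastasis 2 to 182 CPM in metastasis 1, with naive 1 at 120.3, naive 2 at 155 and the mutant libraries at 165 (+/-) and 138 CPM (-/-). Gpr84 was at 94.3 CPM in the Cx3cr1+/- library and at 121 to 171 CPM in the other 5. Il18 was the least abundant member besides Il1rn, at 23.6 CPM in metastasis 1 and 50.9 to 67.3 CPM elsewhere.

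**Figure D1:**
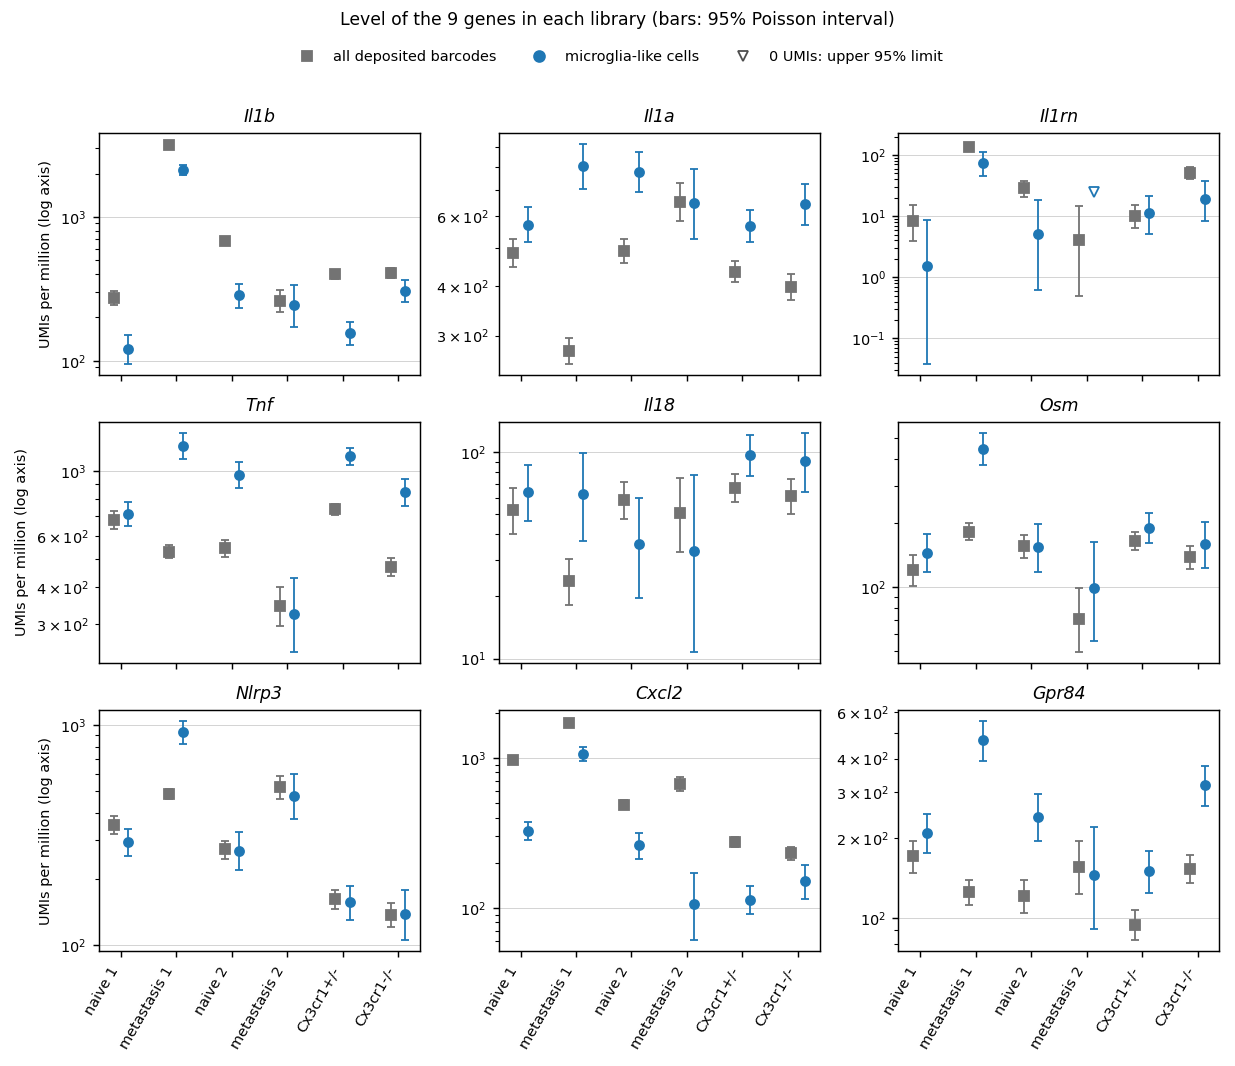
Level of each of the 9 genes in each of the 6 libraries, in CPM on a log axis, for all barcodes and for microglia-like cells, with exact 95% counting intervals. Il1b is highest in metastasis 1 in both measures, while Il1a over all barcodes is lowest in that library.

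Metastasis 1 held microglia, macrophages and S100a8-led cells of the same brain, so it carries the comparison of source cells. Il1b was at 6494 CPM (6302 to 6691) in the macrophages, 6684 CPM (6089 to 7321) in the S100a8-led cells and 2112 CPM (1947 to 2286) in the microglia-like cells. This was 20.6, 14.9 and 3.92 UMIs per cell. The log2 ratio of macrophages to microglia was 1.62 (1.50 to 1.75) and that of S100a8-led cells to microglia 1.66 (1.48 to 1.84), while S100a8-led cells and macrophages did not differ beyond counting error, at 0.04 (−0.10 to 0.18) for the former over the latter. There is 1 library with macrophages in number, so these ratios compare cells of 1 brain and have no replicate test. The macrophages held 55.1% of the library's Il1b UMIs in kept cells and the microglia 7.79%. With classes set by marker UMIs alone, the log2 ratios of macrophages to microglia were 0.72 for Il1b, 0.74 for Il1rn and 1.37 for Cxcl2. Under the same classes, Il1b in S100a8-led cells was less than 2-fold above microglia.

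Cxcl2 and Il1rn had the same order of macrophages above microglia. Cxcl2 was at 4014 CPM (3862 to 4169) in macrophages, 1906 CPM (1594 to 2259.7) in S100a8-led cells and 1063 CPM (947 to 1189) in microglia, a log2 ratio of macrophages to microglia of 1.92 (1.75 to 2.09). Il1rn was at 314 CPM (273 to 359.5), 101 CPM (40.6 to 208) and 72.9 CPM (45.1 to 111) in the same classes, a log2 ratio of macrophages to microglia of 2.11 (1.46 to 2.83). For Il1rn, S100a8-led cells and microglia did not differ beyond counting error, at 0.47 (−1.01 to 1.76). Macrophages held 62.2% of the kept Cxcl2 UMIs and 60.3% of those of Il1rn.

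The other 6 genes stood at or above the macrophage level in microglia of the same library. Il1a was at 802 CPM (702 to 913) in microglia, 394 CPM (347 to 445) in macrophages and 188 CPM (99.9 to 321) in S100a8-led cells, with a log2 ratio of macrophages to microglia of −1.03 (−1.29 to −0.76). Gpr84 was at 469 CPM (393 to 555) in microglia against 146 CPM (119 to 179) in macrophages, a log2 ratio of −1.68 (−2.07 to −1.29). Il1b and Il1a, which share a receptor and lie next to each other in the genome, had opposite orders of source cells. The number of Il1b UMIs per Il1a UMI was 16.5 in macrophages, 35.6 in S100a8-led cells and 2.63 in microglia of metastasis 1, and 0.211 to 0.474 in microglia of the other 5 libraries.

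Tnf was at 1219 CPM in microglia, 735 CPM in macrophages and 549 CPM in S100a8-led cells of metastasis 1, and its log2 ratio of macrophages to microglia was −0.73 (−0.93 to −0.53). For Osm the levels were 448, 247 and 173 CPM and the ratio −0.86 (−1.20 to −0.51). Nlrp3 differed least among the genes whose interval left out 0, at 927, 715 and 635 CPM and a ratio of −0.37 (−0.59 to −0.15). Il18, with 18 UMIs in microglia and 23 in macrophages, gave −0.85 (−1.80 to 0.13), a difference not detectable at this depth.

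**Figure D2:**
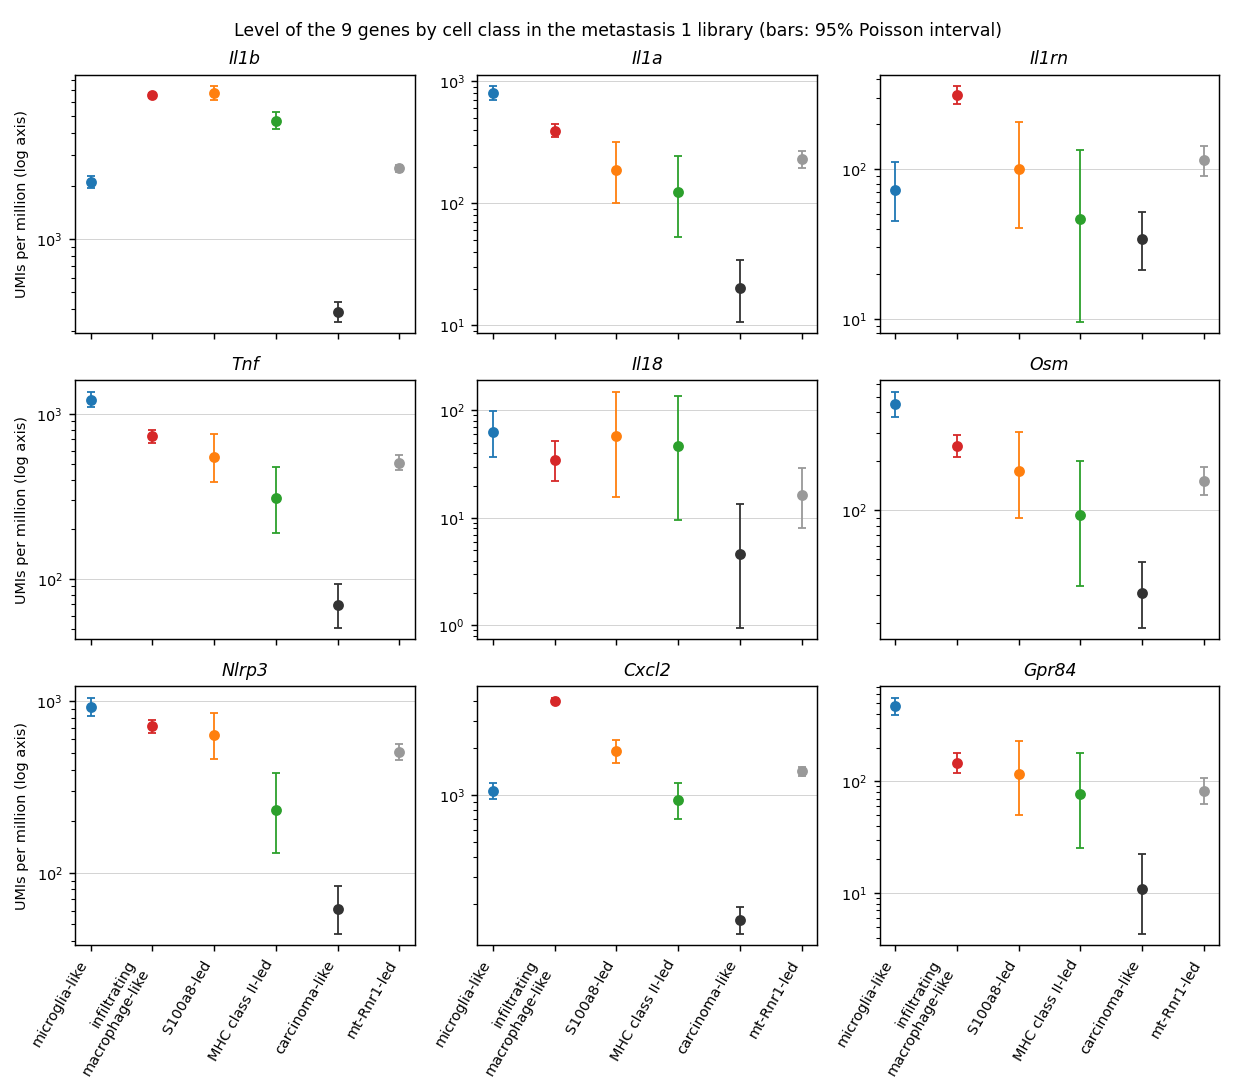
Level of each gene in the cell classes of the metastasis 1 library, in CPM on a log axis with exact 95% counting intervals. Macrophages and S100a8-led cells lie above microglia for Il1b and Cxcl2, and below them for Il1a, Tnf, Osm and Gpr84.

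Of the 9 members, 3 were at least 2-fold higher in macrophages than in microglia of metastasis 1 (Il1b, Il1rn and Cxcl2), where 9.77% of the 8188 genes measured at this depth were. Another 2 were at least 2-fold lower (Il1a and Gpr84), beside 12.1% of all genes, and the median log2 ratio was −0.73 for the members and −0.12 for all genes. With classes set by marker UMIs alone, Il1b and Il1rn were less than 2-fold higher, and Cxcl2 stayed above 2-fold. Between S100a8-led cells and microglia, 1 member was at least 2-fold higher (Il1b) and 4 at least 2-fold lower, beside 10.8% and 19.1% of 5762 genes. The members' median was −0.55 and that of all genes −0.10. With classes set by marker UMIs alone, Il1b was less than 2-fold higher in S100a8-led cells and Il1a less than 2-fold lower. At clustering resolution 2, Il1a, Tnf and Gpr84 were less than 2-fold lower there.

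**Figure D3:**
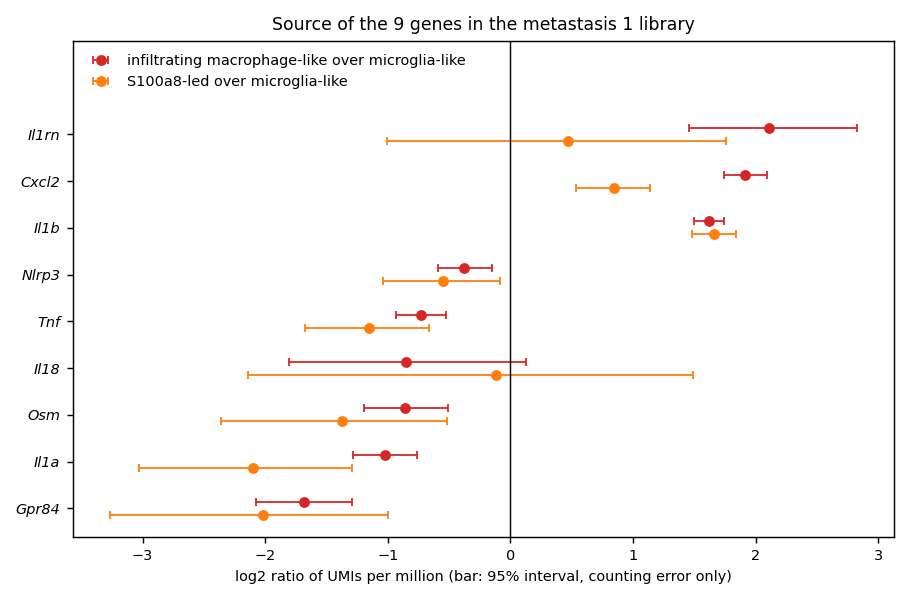
Log2 ratio of each gene in metastasis 1 for infiltrating macrophage-like over microglia-like cells and for S100a8-led over microglia-like cells, with exact 95% counting intervals. The ratios run from 2.11 for Il1rn to −1.68 for Gpr84 in macrophages.

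Several measurements stand beside these source levels. At least 1 Il1b UMI was found in 85.2% (78.6 to 90.4) of the microglia-like cells of metastasis 1 (exact binomial interval), with a median of 1659 UMIs per cell, and in 78.9% (66.1 to 88.6) of its carcinoma-like cells, with a median of 8797 UMIs. After each cell was thinned to 800 UMIs, the shares were 67.7% in microglia, 28.1% in carcinoma-like cells, 91.4% in macrophages and 96.8% in S100a8-led cells. No cell of these 4 classes was too shallow to thin. Carcinoma-like cells, which are not myeloid, held 386 CPM or 4.39 UMIs per cell, and the microglia held 3.92 UMIs per cell. The part of free RNA in the microglial value was not tested. Il1b UMIs per Cxcl2 UMI were 1.62 in macrophages, 1.99 in microglia, 1.77 in the cluster led by mt-Rnr1 and 2.43 in carcinoma-like cells, whereas Il1b per Il1a was 2.63 in microglia and 10.9 to 19.2 in those other 3 classes.

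A large unnamed cluster led by the mitochondrial ribosomal RNA gene mt-Rnr1 held 439 cells, 46.7% of the kept cells of metastasis 1. Its Il1b was at 2517 CPM, Cxcl2 at 1422 CPM, Nlrp3 at 505 CPM and Il1a at 231 CPM. For Il1b, Cxcl2 and Il1rn these values lay between those of microglia and macrophages, and the cluster held 17.5% to 28.4% of the kept UMIs of each member. The cluster was left out of the source ratios because it met no marker rule, also within its own library.

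**Figure D4:**
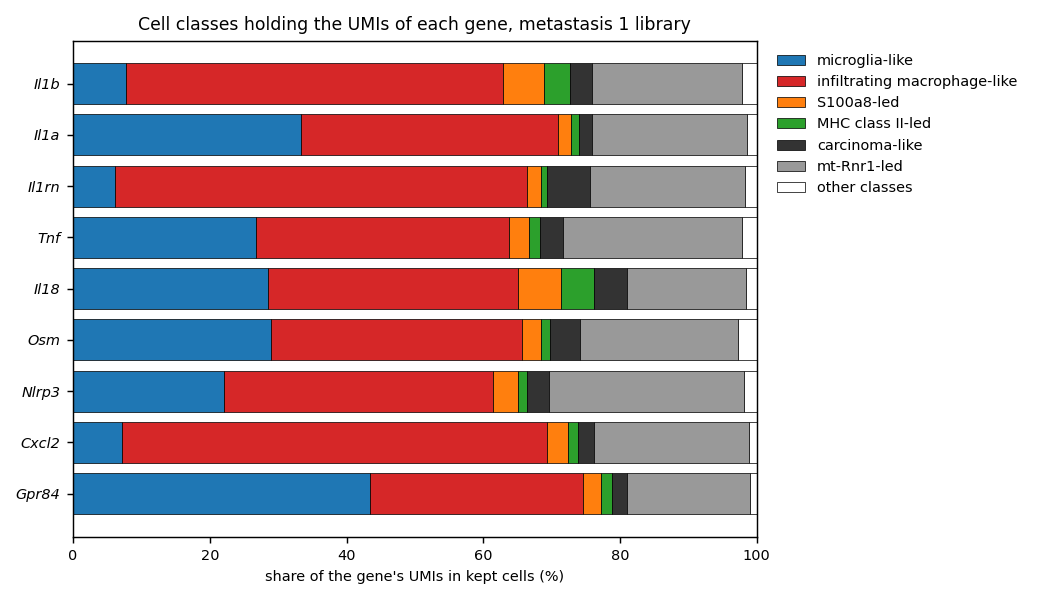
Share of each gene's UMIs among kept cells of metastasis 1 by cell class, in percent of all kept UMIs of that gene. Macrophages hold 55.1% for Il1b and 62.2% for Cxcl2, and microglia hold their largest share, 43.4%, for Gpr84.

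Outside metastasis 1, the S100a8-led cells of the mutant libraries were few and held more Il1b than the microglia beside them. Microglial markers summed to 6586 CPM (+/-) and 7856 CPM (-/-) in these S100a8-led cells, against 1674.5 CPM in those of metastasis 1. They may therefore not be the same kind of source cell. Il1b was at 998 CPM (819.8 to 1204) in 15 such cells of the Cx3cr1+/- library and 902 CPM (638 to 1238) in 8 of the Cx3cr1-/- library, against 156 CPM (129 to 185) and 305 CPM (254 to 363) in the microglia. The log2 ratios were 2.68 (2.30 to 3.06) and 1.56 (1.00 to 2.10), and the second became 0.77 (−0.24 to 1.65) without the cell that held the most Il1b in each class. When classes were set by marker UMIs alone, the ratio in the Cx3cr1+/- library turned to −1.51.

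Border-associated macrophage-like cells, the macrophages of the meninges and vessels, held far more Cxcl2 per UMI than microglia in both naive libraries. In naive 1, 20 such cells held 618 Cxcl2 UMIs, or 8586 CPM, against 324 CPM in microglia. In naive 2, 5 cells held 119 UMIs, or 3063 CPM, against 262 CPM. The log2 ratios were 4.73 (4.50 to 4.96) and 3.55 (3.16 to 3.95), in the same direction in both brains. Il1b was likewise higher in these cells than in microglia, with log2 ratios of 3.46 (3.02 to 3.91) and 3.18 (2.77 to 3.58), and Il1a lower, at −0.90 (−1.60 to −0.28) and −1.75 (−2.89 to −0.80). The Il1b values rested on few cells. In naive 1, 8 of 20 cells held the 96 Il1b UMIs, 37 of them in 1 cell. In naive 2, all 100 lay in 2 of 5 cells, 55 of them in 1, and too few cells remained for a ratio without the highest cell. In the Cx3cr1+/- library the Il1b ratio of 9 such cells was 3.53, and −0.74 without the highest cell of each class, so that it rested on 1 cell.

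Cells led by MHC class II genes, called dendritic cell-like by their markers, held 360 Il1b UMIs in 26 cells of naive 2, or 2303 CPM. That was 54.0% of the kept Il1b UMIs of that library, more than its microglia held (16.6%), but 1 cell held 146 of the 360. In metastasis 1 the class stood at 4683 CPM. The 4 infiltrating macrophage-like cells of naive 2 held 76 Il1b and 125 Cxcl2 UMIs.

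Within microglia-like cells, the naive and metastasis libraries were compared for each gene. Il1b was at 121 and 285 CPM in naive 1 and naive 2, and at 2112 and 245 CPM in metastasis 1 and metastasis 2. The value of metastasis 2 rested on 1 cell, which held 34 of its 37 UMIs. Metastasis 1 was high, the other 3 were low, and the groups overlapped. The log2 ratio of metastasis to naive was 4.13 (3.79 to 4.48) in replicate 1 and −0.22 (−0.79 to 0.33) in replicate 2, where it was −3.36 without the highest cell of each library.

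With edgeR's quasi-likelihood test on 2 against 2 libraries, no gene passed an adjusted p of 0.05 in microglia-like cells, 0 of 5500 tested (0%), and 174 had an unadjusted p under 0.05, while DESeq2 called 2. Over all barcodes, edgeR called 0 of 9678 genes (0%), 71 had an unadjusted p under 0.05, and DESeq2 called 5. No member passed. Without the low-count filter, where 14712 genes were tested in microglia-like cells and 51 called, Il1b was among those called, at 2.45 (SE 0.597, edgeR adjusted p = 0.0142). With the filter in place, in microglia-like cells the fitted log2 difference of Il1b was 2.45 (SE 0.898, edgeR adjusted p = 0.992) and that of Nlrp3 1.20 (SE 0.504, edgeR adjusted p = 0.992), the 2 members with an unadjusted p under 0.05. With metastasis 2 left out, the fitted differences were 3.23 for Il1b and 4.30 for Il1rn, and without metastasis 1 the Il1b difference was 0.26. Each of these fits leaves 1 metastasis library, so that group has no replicate in them. With a mitochondrial limit of 25% in place of 10% the fitted differences were 1.08 for Il1b and −1.19 for Tnf, the latter −0.23 at the 10% limit. Labels name 1 brain per library, so n is 2 brains per group.

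By the labels, Nlrp3 had the same direction in both replicates. With the labels of replicate 2 alone reversed, its directions would be opposite. Its level in microglia-like cells was 294 and 269 CPM in naive 1 and naive 2, and 927 and 477 CPM in metastasis 1 and metastasis 2. The groups did not overlap in this direction, as for 19.2% of the 5500 genes tested, and the log2 ratios were 1.66 (1.39 to 1.93) and 0.82 (0.37 to 1.27). Different clusters held most microglia-like cells of these libraries: cluster 0 held 75 of 120 in naive 2, cluster 5 held 42 of 73 in metastasis 2 and 218 of 371 in naive 1, and cluster 10 held 152 of 155 in metastasis 1. In metastasis 2, 59 of the 72 Nlrp3 UMIs lay in the 25 cells of cluster 1, at 761 CPM against 367 CPM in that cluster of naive 2. In cluster 0 the levels were 176 CPM in 6 cells of metastasis 2 and 253 CPM in naive 2, with overlapping intervals. In the mutant libraries, also with metastases, the microglial level was 157 CPM (+/-) and 138 CPM (-/-), below both naive values.

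Of the other members, Tnf, Osm, Cxcl2 and Gpr84 went opposite ways in the 2 replicates by the labels. With those of replicate 2 alone reversed, they would go the same way. Their log2 ratios in microglia-like cells were 0.77, 1.62, 1.71 and 1.16 in replicate 1, and −1.58, −0.63, −1.30 and −0.73 in replicate 2. Their levels were therefore high in metastasis 1 and low in metastasis 2, with the naive libraries between them. For Cxcl2 these levels were 1063, 106, 324 and 262 CPM in metastasis 1, metastasis 2, naive 1 and naive 2. For Osm the intervals of metastasis 2 (55.6 to 164 CPM, 15 UMIs) and naive 2 (117 to 198 CPM, 60 UMIs) overlapped.

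Il1a stayed within a narrow range in microglia-like cells of all 6 libraries. It was at 572, 777, 802 and 649 CPM in naive 1, naive 2, metastasis 1 and metastasis 2, and at 566 and 643 CPM in the Cx3cr1+/- and Cx3cr1-/- libraries. After thinning to 800 UMIs, 28.5% to 43.2% of microglia-like cells held it. Il18 ranged from 33.1 to 97.0 CPM, on 5 to 78 UMIs. Il1rn was close to absent from microglia, with 1 UMI in naive 1, 2 in naive 2, 0 in metastasis 2 (which allows up to 24.4 CPM) and 21 in metastasis 1, and it was filtered out of the edgeR test there.

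Counted by size in replicate 1, 6 of 9 members were at least 2-fold higher in microglia-like cells of metastasis 1 than in those of naive 1 (22.6% of 8209 genes) and none at least 2-fold lower (12.9%). In replicate 2, none of 8 members was at least 2-fold higher (9.03% of 6951 genes) and 2 were at least 2-fold lower (16.8%). The members' median log2 ratio was 1.62 in replicate 1 and −0.45 in replicate 2, beside 0.25 and −0.11 for all genes. Carcinoma markers summed to 483 CPM in microglia-like cells of metastasis 1 with Epcam and Krt18 at 0, to 52.0 CPM in naive 1 and to 18.0 CPM in naive 2. Metastasis 2 had 0 UMIs of any of these markers, and naive 2 held 4 UMIs of Rhox5 and 2 of Esx1, so these markers do not set metastasis 2 above naive 2. Choroid plexus and ependymal markers summed to 1277 and 2198 CPM in naive 1 and naive 2 and 177 and 245 CPM in metastasis 1 and metastasis 2. Median depth was 1186, 2696, 1659 and 957 UMIs per microglia-like cell in the same order. The part of other cells' RNA and of depth in these values was not tested.

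The Cx3cr1-/- and Cx3cr1+/- libraries give 1 value each, so their ratios have no replicate check. In microglia-like cells Gpr84 was at 151 CPM (125 to 179.9) in the Cx3cr1+/- and 317 CPM (265 to 376) in the Cx3cr1-/- library, a log2 ratio of 1.07 (0.71 to 1.44). Over all barcodes it was 0.70 (0.44 to 0.97). Gpr84 was found in 33.0% of the Cx3cr1+/- and 32.0% of the Cx3cr1-/- microglia-like cells, and in 10.3% of each after thinning. No larger share of cells holding the gene was seen beside the higher level. The thinned shares rest on 18 of 174 and 12 of 116 cells, which could miss a difference. The highest cell held 13 of 121 Gpr84 UMIs in the Cx3cr1+/- and 25 of 133 in the Cx3cr1-/- microglia-like cells. Il1b was at 156 and 305 CPM in microglia-like cells, a ratio of 0.97 (0.60 to 1.34), and 0.70 without the highest cell of each library. Over all barcodes its ratio was 0.03 (−0.11 to 0.18), a difference within counting error. With classes set by marker UMIs alone the Il1b ratio was 0.31, and the Gpr84 ratio was 0.50 with a mitochondrial limit of 25% and 0.55 without doublet removal. Choroid plexus and ependymal markers stood at 1097 CPM in the Cx3cr1+/- and 484 CPM in the Cx3cr1-/- microglia-like cells, where all of them but Ttr were at 0, and their part in the ratios was not tested.

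Tnf was lower in the Cx3cr1-/- library, at 846 against 1121 CPM in microglia-like cells, with a log2 ratio of −0.41 (−0.59 to −0.23) there and −0.65 (−0.77 to −0.53) over all barcodes. Il1a, Il18, Osm, Nlrp3, Cxcl2 and Il1rn had intervals that covered 0 in microglia-like cells, from −0.25 for Osm to 0.77 for Il1rn. Over all barcodes Il1rn gave 2.34 (1.67 to 3.05), and 32 of its 41 UMIs in kept cells of the Cx3cr1-/- library lay in the 12 cells led by MHC class II genes, with 21 of the 32 in 1 cell. By size, 1 member was at least 2-fold higher in the Cx3cr1-/- microglia (4.9% of 9157 genes) and none at least 2-fold lower (9.34%), and the members' median was 0.18 beside −0.06 for all genes.

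Within microglia-like cells, Il1a and Tnf were found together in more cells than the product of their shares gives. After thinning, 20 cells held both beside a product of 11.2 in naive 2, 32 cells held both beside a product of 25.4 in the Cx3cr1+/- library, 17 cells held both beside a product of 11.2 in the Cx3cr1-/- library and 43 cells held both beside a product of 35.4 in metastasis 1. In naive 1 the numbers were 29 and 28.0, and they were 4 and 2.61 in metastasis 2. The macrophages of metastasis 1 had 17 and 12.1, so this was not particular to microglia. Of other pairs counted in microglia-like cells of metastasis 1, Il1b with Il1a gave 45 beside 45.4, and Il1b with Cxcl2 gave 56 beside 46.7. Cells of 1 library share their droplets and handling, so these are descriptions.

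The other genes of these pathways were taken from 6 lists. By edgeR no gene of any list passed in either comparison of metastasis with naive, 0 of 6 tested in the interleukin-1 and interleukin-18 list, 0 of 7 in the inflammasome list, 0 of 5 in the TNF list, 0 of 4 in the oncostatin M list and 0 of 6 in the innate sensing list for microglia-like cells, where none of the CXCR2 list was abundant enough. Over all barcodes the counts were 0 of 12, 0 of 9, 0 of 8, 0 of 6 and 0 of 9, with 0 of 1 for the CXCR2 list. Median log2 differences in microglia-like cells lay between −0.09 for the inflammasome list and 0.35 for the interleukin-1 and interleukin-18 list, beside 0.01 for all genes.

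Between source cells of metastasis 1, Cxcl1, another ligand of Cxcr2, stood with Cxcl2, at 404 CPM in macrophages and 59.0 CPM in microglia, a log2 ratio of 2.78 (2.07 to 3.58). The genes named from here to the end of the next paragraph were chosen after their values were seen, apart from Casp4, Pycard and Nfkbia. Of 10 inflammasome genes, 3 were at least 2-fold higher in macrophages and 2 at least 2-fold lower, beside 9.77% and 12.1% of all genes. Higher were Mefv, which codes for the inflammasome sensor pyrin, at 104 CPM in macrophages and 17.4 CPM in microglia, a log2 ratio of 2.58 (1.29 to 4.25), and Nlrp1b, a sensor, at 13.6 CPM in macrophages and 3.47 CPM in microglia, a log2 ratio of 1.97 (−0.88 to 7.42). Nlrc4, a partner of the sensors of bacterial flagellin, had 16 UMIs in macrophages and 0 in microglia, a log2 ratio of 1.21 against a floor of 3 counts in the microglia, with an exact lower limit of 0.74 that does not secure a 2-fold difference. Lower were Casp4, the caspase of the non-canonical pathway, at 198 CPM in macrophages and 483 CPM in microglia, a log2 ratio of −1.29 (−1.64 to −0.93), and Aim2, a DNA sensor, at 164 CPM in macrophages and 375 CPM in microglia, a log2 ratio of −1.19 (−1.59 to −0.79). Casp1, the caspase that cuts both cytokine precursors, and Pycard, its adaptor, had log2 ratios of 0.63 (0.02 to 1.29) and 0.52 (0.02 to 1.05).

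In the innate sensing list of 10 genes, Il10 (an anti-inflammatory cytokine), Il23a (a subunit of interleukin-23) and Ptgs2 (the inducible cyclooxygenase) were at least 2-fold higher in macrophages, at log2 ratios of 2.44 (1.00 to 4.37), 2.05 (−0.01 to 5.19) and 1.50 (0.76 to 2.33). The intervals of Nlrp1b, Il23a and Il18bp covered 0. Tlr4, the receptor of bacterial lipopolysaccharide, was lower, at −2.52 (−4.65 to −0.73). Il18bp, which binds and blocks interleukin-18, was 1 of 11 genes of the interleukin-1 and interleukin-18 list to pass 2-fold, at 1.19 (−0.38 to 3.19). Il6 was 1 of 6 in the oncostatin M list, at 1.53 (0.29 to 3.06), and none of 8 TNF genes passed. Of all genes 9.77% were that much higher, so 1 of 11, 1 of 6 and 0 of 8 are near the background. Nfkbia, the NF-kB inhibitor and the most abundant gene of these lists, was at 4881 CPM in macrophages and 4063 CPM in microglia of metastasis 1, and at 2754 to 6139 CPM in microglia of the other libraries.

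The 2 genes of each list with the most UMIs over all kept cells include Casp4, Pycard, Cxcl1 and Nfkbia, given above, and 8 others. Irak1 and Myd88, which carry the signal of the interleukin-1 receptor, had log2 ratios of macrophages to microglia of −0.41 (−0.91 to 0.11) and 0.66 (−0.01 to 1.37). For Tnfaip3, an inhibitor of NF-kB, and Tnfrsf1a, a receptor of tumour necrosis factor, they were −0.18 (−0.44 to 0.09) and 0.11 (−0.49 to 0.74). Jak1, a kinase of the oncostatin M receptor, and Socs3, its feedback inhibitor, gave −0.09 (−0.49 to 0.31) and −0.13 (−0.52 to 0.26). These 6 intervals covered 0. Stat3, which relays oncostatin M signals and was chosen after its value was seen, gave −0.38 (−0.73 to −0.02). Nfkbiz, a nuclear cofactor of NF-kB, was lower in macrophages, at −0.48 (−0.61 to −0.35), and Nfkbia had 0.26 (0.17 to 0.36). Cxcl3, also a ligand of Cxcr2, was at 7.54 CPM in macrophages and had no UMI in microglia of metastasis 1.

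Likeness of pattern was measured as Pearson's r of log2(CPM + 10) over 19 profiles, each the sum of a cell class in a library, among 5150 genes, and is given without a test because profiles share libraries and depth. Il1b was most like Rnf149, Gp49a and Gm6377 (r = 0.96, 0.93 and 0.90), and Nlrp3 most like Csrnp1, Zeb2 and Plek (r = 0.95, 0.92 and 0.90). Il1a was most like Mertk, Pde3b and Ccl3 (r = 0.94, 0.93 and 0.93), and Tnf most like the chemokine genes Ccl4 and Ccl3 and then Lacc1 (r = 0.93, 0.92 and 0.87). Cxcl2 had no gene as close, with Ptpn2 at 0.81, AI607873 at 0.79 and Atp6v1a at 0.78, and the first genes for Gpr84, Osm, Il18 and Il1rn were Plcb2 at 0.83, Id2 at 0.85, Casp8 at 0.86 and Gp49a at 0.88. Among members, Il1b had r = 0.76 with Il1rn, 0.70 with Cxcl2 and 0.12 with Il1a, whereas Il1a had 0.86 with Tnf and 0.79 with Gpr84.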

How the data were processed

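The values were raw UMI counts per gene and cell barcode, deposited by the authors as 1 table of 1000 barcodes per library. STAR, Seurat and the mm10 build are named in the submitters' processing notes, without versions or settings. Barcodes with at least 400 genes and at most 10% mitochondrial UMIs were kept, and the 5% with the highest doublet scores in each library were removed. Clustering used scanpy 1.11.5 and igraph 0.11.9 on 2000 variable genes without the 9 genes described, 30 components and 15 neighbours at resolution 1. Clusters were named from 15 marker lists by rules whose thresholds were set after the clusters were seen, and the S100a8-led and MHC class II-led clusters carry descriptive names. Each library's UMIs were summed over all barcodes and over each class.

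Naive and metastasis sums were tested with edgeR 4.0.16 (R 4.3.3), its quasi-likelihood test and Benjamini-Hochberg adjustment over all genes tested. DESeq2 1.42.0 was an alternative, and the edgeR code was run on simulated counts. The simulated counts had a fixed spread for all genes, so they cannot show how the test performs on these libraries. The labels number the replicates, but the number matches the sequencer and is not known to pair brains. Ratios of 2 sums carry exact 95% intervals (scipy 1.17.1) for counting error only, and the floor for a count of 0 is 3 counts. Depth was 491621 to 2667099 UMIs per library.

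All 9 members were named in every library. Of each pathway list the genes past a test and the 2 most abundant were named, and likeness was measured for members with at least 200 UMIs in kept cells. The members and gene lists were chosen with earlier results of these data known. Other classes, filters, normalizations and left-out libraries were tried as alternatives.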

Additional observations from a re-analysis of the deposited data

How the results depend on the processing

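Results rest on few brains, on 1 library for macrophages and on class rules. No pairing of brains by replicate number is known. Deviations of the replicates had a correlation across genes of −0.14 in microglia-like cells and −0.42 over all barcodes. With a replicate block, edgeR called 0 genes in microglia-like cells and 0 over all barcodes, and the Il1b difference was 1.90. A crossed replicate block, added after seeing the data, called 5 genes and 1.

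Genes called in microglia-like cells numbered 2 with DESeq2, 51 without the low-count filter and 0 to 212 with 1 library left out (0 without naive 1, 2 without metastasis 1, 17 without naive 2 and 212 without metastasis 2). Over all barcodes they numbered 5, 110 and 0 to 0. In microglia-like cells the Il1a difference turned to −0.01 without the filter and with the members among the variable genes, and to −0.16 with classes by marker UMIs, and at a mitochondrial limit of 25% those of Osm and Cxcl2 turned to −0.33 and −0.61.

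With 1 library left out, the log2 differences in microglia-like cells ran from 0.26 to 3.23 for Il1b, −0.14 to 0.12 for Il1a, −1.42 to 0.35 for Tnf, −0.71 to 0.40 for Il18, −0.65 to 1.38 for Osm, 0.69 to 1.51 for Nlrp3, −1.54 to 1.64 for Cxcl2 and −0.68 to 0.86 for Gpr84. Over all barcodes they ran from −0.86 to 2.63 for Il1b, −0.98 to 0.37 for Il1a, −2.15 to 2.88 for Il1rn, −0.88 to −0.29 for Tnf, −1.37 to −0.17 for Il18, −0.99 to 0.27 for Osm, 0.33 to 0.92 for Nlrp3, −0.21 to 1.30 for Cxcl2 and −0.48 to 0.25 for Gpr84.

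For macrophages over microglia, Il1b was at 1.30 without doublet removal, 1.20 at resolution 2 and 0.72 with classes by marker UMIs, Il1rn at 0.74 by marker UMIs, Cxcl2 at 1.72, 2.19 (members variable) and 1.37, and Gpr84 at −2.33 at resolution 2. For S100a8-led cells over microglia of metastasis 1, Il1b was at 1.25, 1.05 and 0.61 under the first 3 of these, Il1a at −0.95 (resolution 2) and −0.70 (marker UMIs), Il1rn at −1.40 (marker UMIs), Tnf at −0.23 and Gpr84 at −0.68 (resolution 2), and Nlrp3 turned to 0.09 by marker UMIs. For Cx3cr1-/- over Cx3cr1+/- microglia-like cells, Il1b was at 0.31, Tnf at −0.84, Osm at −1.01 and Cxcl2 at −0.12 by marker UMIs, and Gpr84 at 0.50 (25% limit) and 0.55 (no doublet removal). Other ratios that turned were those of S100a8-led cells over microglia of the Cx3cr1+/- library by marker UMIs (Il1b −1.51, Tnf 0.56), of its border-associated cells over microglia (Il1b −1.05 without doublet removal and −0.74 without the highest cell, Il1a 0.34 with members variable) and of S100a8-led cells over macrophages for Il1a (0.29 at resolution 2, 0.36 by marker UMIs). The cause was not tested. At a mitochondrial limit of 25% the macrophage class of metastasis 1 could not be formed.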
